A study of Mus musculus with 3 samples.

Results

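The spliceosome removes introns with small nuclear RNAs (snRNAs), and 31 snRNA genes were detected in these macrophages. They were chosen by a threshold: of 1383 mouse genes annotated as snRNA, 31 had a mean of at least 1 TPM (a length-corrected share of all transcripts in a library) over the 3 libraries. The samples were the cytosolic fraction of bone marrow-derived macrophages of C57BL/6J mice, an inbred strain, stimulated with lipid A, the membrane-anchoring portion of bacterial endotoxin, at 100 ng/ml for 90 min. All 3 libraries belonged to this 1 group, so every value below comes from stimulated cytosol; neither unstimulated cells nor nuclei are part of the data analysed here. The labels number the libraries as biological replicates but give them 1 donor identifier, and sex and age were not collected. Nothing in the labels says that the cultures or animals were separate, so the spread between libraries may be technical. Total RNA was depleted of ribosomal RNA, and each library was made from 1 µg.

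Each snRNA is the core of a ribonucleoprotein particle. U1 pairs with the 5′ splice site and U2 with the branch point, while U4 arrives base-paired to U6 and with U5 in the tri-snRNP. U12, U11 and U6atac serve the rarer minor introns, and U7 processes histone mRNA 3′ ends. Apart from U6 and U6atac, newly made snRNAs pass through the cytosol, where the SMN complex loads a ring of Sm proteins onto a uridine-rich site before the particle is imported into the nucleus. Most snRNAs are encoded by repeated genes, so several genes can give the same RNA.

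The 31 genes carried 17 distinct sequences and fell into 5 classes: 16 U1 genes with 6 sequences, 11 U2 genes with 7, 2 U4 genes with 2, and 1 gene each for U12 (Rnu12) and U6atac (Gm25541). Every one was at least 95.2% identical to the reference gene of its class. The gene symbols name the class of only the 6 Rnu genes. The others were placed by sequence, and the U4 pair and the U6atac gene have no named gene of their class in the annotation, so their reference (Gm24265 and Gm25541) was recognised by its sequence. The reads of identical copies cannot be told apart, and the deposited tables gave such copies equal values. Copies are therefore described as 1 sequence, and their number is not a number of independent measurements.

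The sequences below are the GENCODE M21 transcripts of the mm10 genome, written 5′ to 3′ as DNA, and positions are counted from 1 at the 5′ end. The first set shows the 2 main U1 RNAs and the U1b form. Capitals in Rnu1a1 (chr11:87422867-87423030, plus strand) and Gm25890 (chr3:96486555-96486719, minus strand) mark ACTTACCTG, the stretch that pairs with 5′ splice sites, and AATTTGTGG, the Sm site. The capital in Gm22513 (chr12:54696782-54696945, plus strand) marks its only difference from Rnu1a1, T60C, and the capital in Rnu1b1 (chr3:96359953-96360117, minus strand) its only difference from Gm25890, C33T.
Rnu1a1: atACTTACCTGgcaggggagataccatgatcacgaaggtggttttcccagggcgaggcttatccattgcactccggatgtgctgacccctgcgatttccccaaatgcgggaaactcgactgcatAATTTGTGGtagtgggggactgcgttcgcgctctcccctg
Gm22513: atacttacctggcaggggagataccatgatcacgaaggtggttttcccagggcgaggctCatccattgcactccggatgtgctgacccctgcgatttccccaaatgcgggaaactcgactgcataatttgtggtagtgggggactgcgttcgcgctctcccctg
Gm25890: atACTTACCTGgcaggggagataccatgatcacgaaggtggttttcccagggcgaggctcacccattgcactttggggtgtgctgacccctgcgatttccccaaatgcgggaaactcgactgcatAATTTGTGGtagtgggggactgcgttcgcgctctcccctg
Rnu1b1: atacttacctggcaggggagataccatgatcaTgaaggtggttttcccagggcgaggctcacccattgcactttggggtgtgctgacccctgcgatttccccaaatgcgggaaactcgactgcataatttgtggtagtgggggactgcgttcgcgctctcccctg

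The 4 leading U2 sequences are shown because they differ at few bases and 2 of them were quantified unstably. Capitals in Rnu2-10 (chr11:101658238-101658428, plus strand) mark GTAGTA, which pairs with the branch point, and ATTTTTGG, the Sm site. In Gm25939 (chr1:72255008-72255198), Gm23444 (chr11:83271498-83271688) and Gm24497 (chr1:72244213-72244403), all on the plus strand, capitals mark differences from Rnu2-10. These are T69C, C78T and G109C in Gm25939, G109C alone in Gm23444, and G109C with C186A in Gm24497.
Rnu2-10: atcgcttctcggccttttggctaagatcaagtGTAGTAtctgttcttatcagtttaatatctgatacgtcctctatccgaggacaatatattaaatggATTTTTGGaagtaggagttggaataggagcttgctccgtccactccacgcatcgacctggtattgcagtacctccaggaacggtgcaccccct
Gm25939: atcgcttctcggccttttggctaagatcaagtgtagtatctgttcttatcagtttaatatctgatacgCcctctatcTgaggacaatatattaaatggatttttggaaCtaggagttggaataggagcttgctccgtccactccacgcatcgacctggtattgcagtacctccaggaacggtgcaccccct
Gm23444: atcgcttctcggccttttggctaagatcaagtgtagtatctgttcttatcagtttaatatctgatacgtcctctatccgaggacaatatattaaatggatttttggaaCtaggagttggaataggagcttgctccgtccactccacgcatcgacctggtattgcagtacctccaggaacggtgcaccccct
Gm24497: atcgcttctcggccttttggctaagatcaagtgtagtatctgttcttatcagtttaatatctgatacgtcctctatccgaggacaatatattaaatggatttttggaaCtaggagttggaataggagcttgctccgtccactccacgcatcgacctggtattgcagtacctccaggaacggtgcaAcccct

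The last set holds the classes with 1 or 2 detected genes. In Gm24265 (U4, chr5:115489459-115489599, plus strand) capitals mark TTGCGCAG, part of the region that pairs with U6, and the Sm site AATTTTTGA. In Rnu12 (chr15:83149644-83149794, plus strand) they mark the same Sm site as in U4, and Gm25541 (U6atac, chr2:27539805-27539930, minus strand) has none of the searched stretches on its own strand.
Gm24265: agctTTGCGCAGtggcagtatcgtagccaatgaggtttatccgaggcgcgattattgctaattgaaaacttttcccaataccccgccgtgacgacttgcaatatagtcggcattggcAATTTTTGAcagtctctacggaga
Rnu12: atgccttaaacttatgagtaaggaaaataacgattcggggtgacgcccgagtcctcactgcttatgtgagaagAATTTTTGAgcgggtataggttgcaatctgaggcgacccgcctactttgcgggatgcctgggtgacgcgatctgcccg
Gm25541: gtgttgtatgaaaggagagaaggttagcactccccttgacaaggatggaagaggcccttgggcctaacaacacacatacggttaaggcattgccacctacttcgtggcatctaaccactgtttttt

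The U1 and U2 stretches were shared by detected and undetected genes of the class. ACTTACCTG stood in 16 of 16 detected U1 genes and in 15 of 17 undetected U1 genes, against 3.98% of all 1383 snRNA genes on the transcribed strand. The U1 Sm site AATTTGTGG stood in 16 of 16 and in 12 of 17, against 4.70%. Among U2 genes, GTAGTA and ATTTTTGG stood in 11 of 11 detected and 3 of 3 undetected genes, against 3.69% and 1.81% of all snRNA genes. AATTTTTGA stood in both detected U4 genes, in the undetected one and in Rnu12, and in 0.795% of all snRNA genes. Searched on either strand, the shares of all snRNA genes were 3.98%, 4.70%, 4.77%, 1.88% and 0.868% in that order. TTGCGCAG stood in both detected U4 genes and not in the 1 undetected U4 gene, and in 0.795% of all snRNA genes on the transcribed strand and in 16.5% on either strand. These matches describe the letters only.

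Together the 31 genes held 5544, 6468 and 14425 TPM in replicates 1, 2 and 3, which is 0.554%, 0.647% and 1.44% of all TPM. In reads their part was far smaller: 2957, 7432 and 20610 expected counts, or 0.00874%, 0.0155% and 0.0347% of the library. TPM divides counts by an effective length, the number of positions at which a fragment could start. For RNAs of 126 to 191 nt, shorter than the fragments of 250 to 400 named in the labels, that length was small. It was 14.3, 18.9 and 19.2 for the U2 genes (191 nt), 6.38, 8.16 and 8.57 for Rnu1a1 (164 nt) and 2.30, 2.80 and 3.05 for the U4 genes (141 nt).

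**Figure D1:**
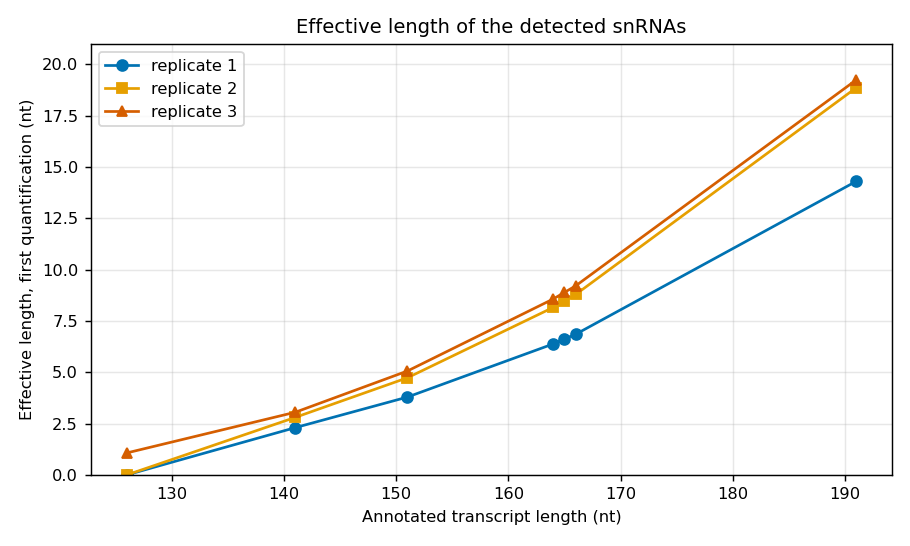
Effective length in the first quantification (y axis, nt) against annotated transcript length (x axis, nt) for the lengths found among the 31 detected snRNA genes, with 1 line per library. It lies between 14.3 and 19.2 at 191 nt and between 0 and 1.07 at 126 nt.

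As a result 1 read was worth 1.17 TPM for a U2 gene and 7.30 TPM for a U4 gene in replicate 1, so levels of different classes rest on very unequal numbers of reads. In replicate 1, 1 read was worth more than 1 TPM for 30 of the 31 genes, while the threshold used the mean of the 3 libraries. A second quantification deposited for the same libraries, which gave longer effective lengths, put the 31 genes at 732, 904 and 1526 TPM. Its estimated counts for them, 3611, 8758 and 24643, were close to those of the first. The TPM levels of the detected snRNAs as a whole thus differ between the quantifications by more than the spread between libraries, while the read counts do not.

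U1 held 3120, 3428 and 8010 TPM in the first quantification. Most of it came from 1 RNA: the 7 identical genes with the Rnu1a1 sequence, on chromosomes 11 and 12, held 60.5%, 60.7% and 57.3% of U1 TPM. Each such copy was given 270, 297 and 655 TPM. The single gene Gm22513, which differs from them at 1 base, had 842, 897 and 2237 TPM, or 27.0%, 26.2% and 27.9% of U1. In TPM it was the highest single snRNA gene in every library, on 320, 691 and 2202 expected counts. Its sequence occurs in 1 gene. The deposited credibility bounds (their level is not stated in the file) of its TPM, 734 to 915 in replicate 1, were narrow. For a single Rnu1a1 copy the bounds ran from 0.07 to 727 TPM.

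The U1b genes, 7 genes with 3 sequences on chromosome 3, held 11.8%, 11.9% and 13.5% of U1 TPM. U1b RNAs are known in mouse as forms used mainly in embryonic and immature cells. Nearly all of it came from the identical genes Gm25890 and Gm22614, at 164, 192 and 491 TPM each. The named U1b genes were far lower. Rnu1b6 and its identical copies Gm24830 and Gm26232 had 7.71, 4.50 and 27.96 TPM each, on 3.15, 3.73 and 29.6 expected counts. Rnu1b1 and Rnu1b2, identical to each other and 1 base from Gm25890, had 7.67, 4.45 and 8.44 TPM each, on at most 8.61 counts. The last U1 sequence, Gm24305, differs from Rnu1a1 by A26G and had 21.9, 42.2 and 103.2 TPM.

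The division of U1 between sequences was nearly the same in both quantifications. The second gave the Rnu1a1 sequence 59.1 ± 1.91% of U1 (SD, n = 3), against 59.5 ± 1.95% in the first. For Gm22513 the shares were 26.9 ± 0.84% and 27.0 ± 0.88%, and for the U1b genes together 12.7 ± 0.99% and 12.4 ± 0.98%. Each of these differences was smaller than the SD between libraries.

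**Figure D2:**
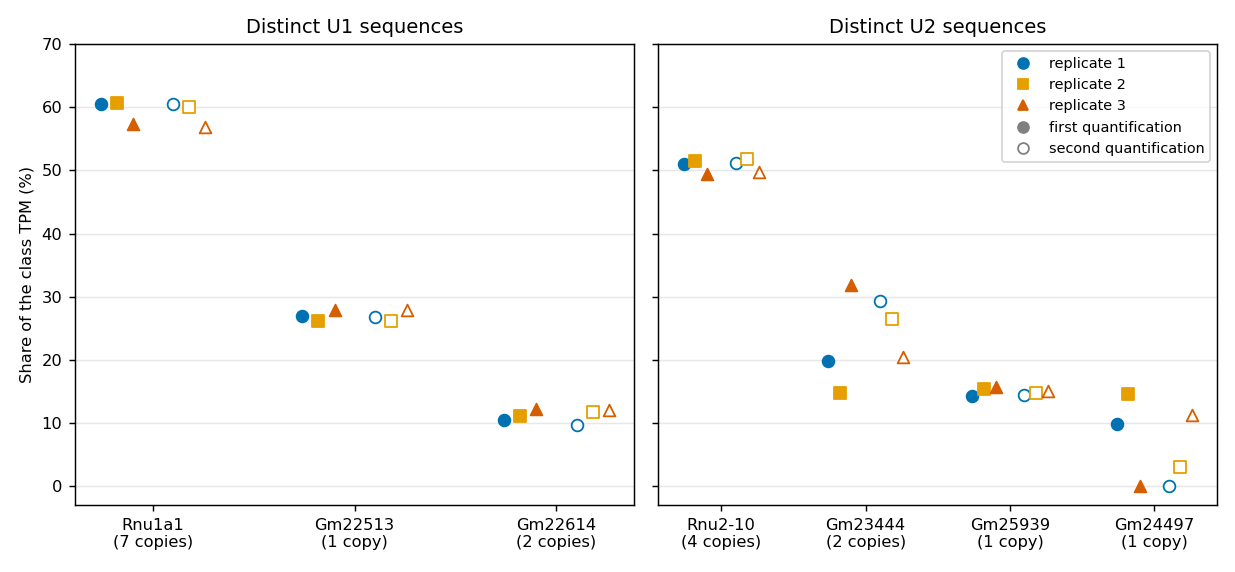
Share of the TPM of the class (y axis, percent) for the leading U1 sequences (left) and U2 sequences (right), 1 point per library, filled for the first and open for the second quantification. U1 shares coincide between quantifications, while those of Gm24497 and of Gm23444 with its copy differ. In replicate 3 Gm24497 has 4.23 TPM in the first quantification and 91.0 TPM in the second.

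U2 held 2003, 2618 and 5614 TPM in 11 genes. The 4 identical genes Rnu2-10, Gm23849, Gm23971 and Gm24950 lie in 1 array on chromosome 11, in which 5 detected U2 genes span 53.6 kb. They held 51.1%, 51.5% and 49.4% of U2 TPM, at 256, 337 and 693 TPM each. Gm25939 on chromosome 1, a single-copy sequence, had 288, 403 and 882 TPM, or 14.4%, 15.4% and 15.7% of U2. The minor U2 sequences were Gm25360 at 55.2, 73.2 and 129.9 TPM, Gm26316 at 32.3, 12.7 and 18.9 TPM, and Gm22973 at 7.05, 8.43 and 17.66 TPM. Gm26316 was the only U2 sequence with its highest value in replicate 1.

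One pair of U2 sequences, 1 base apart, could not be separated reliably. Gm24497 had 199, 383 and 4.23 TPM, lowest in replicate 3 where most other genes were highest. Gm23444 and its identical copy Gm23472 had 199, 194 and 895 TPM each. In replicate 1 all 3 genes were given the same value. The second quantification gave Gm24497 its highest value in replicate 3, with 0, 15.1 and 91.0 TPM. The first quantification's point value for Gm24497 in replicate 3 lay below its own deposited bounds, 42.3 to 1025 TPM, and it was the only value of a detected snRNA gene in any library outside its bounds. Together, however, the 3 genes held 29.9%, 29.4% and 32.0% of U2 TPM in the first quantification and 29.4%, 29.6% and 31.8% in the second. Their combined share was therefore steady across quantifications, and the separate level of Gm24497 is uncertain.

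Whether U1 or U2 was higher depended on the quantification. The ratio of U2 to U1 was 0.702 ± 0.061 in TPM of the first (SD, n = 3) and 1.30 ± 0.085 in TPM of the second, and it lay on the same side of 1 in all 3 libraries of each. In expected counts, which are not corrected for length, it was 1.58 ± 0.163. No order of the U1 and U2 levels is given for that reason.

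U4, which holds U6 inactive until the spliceosome is activated, held 395, 404 and 759 TPM. Its 2 genes lie within 0.94 kb on chromosome 5 and differ at G88A and C99A. Gm24265 had 263, 253 and 511 TPM and Gm24407 had 132, 151 and 248 TPM. Gm24265 thus gave 65.5 ± 2.54% of U4 in the first quantification and 70.1 ± 1.89% in the second, the larger share in every library of both. These TPM values rest on only 36, 67 and 179 counts for Gm24265 and 18, 40 and 87 for Gm24407. The ratio of U4 to U1 was 0.127, 0.118 and 0.095 in TPM of the first quantification, and 0.087, 0.096 and 0.082 in the second.

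The minor spliceosome RNAs rested on few counts in the first quantification. Rnu12 had 26.6, 17.9 and 25.8 TPM on 6, 8 and 15 counts, and the second quantification gave it 9.83, 11.1 and 18.2 TPM on 37, 75.9 and 208.9 estimated counts. Gm25541 (U6atac) passed the threshold through replicate 3 alone, at 0, 0 and 16.4 TPM. Its expected counts were 1, 2 and 2: in replicates 1 and 2 its effective length was 0, and the reads could give no TPM. The second quantification gave it 4.99, 5.62 and 6.43 TPM on 14, 27 and 53 estimated counts. The zeros in the first are therefore not an absence of reads.

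**Figure D3:**
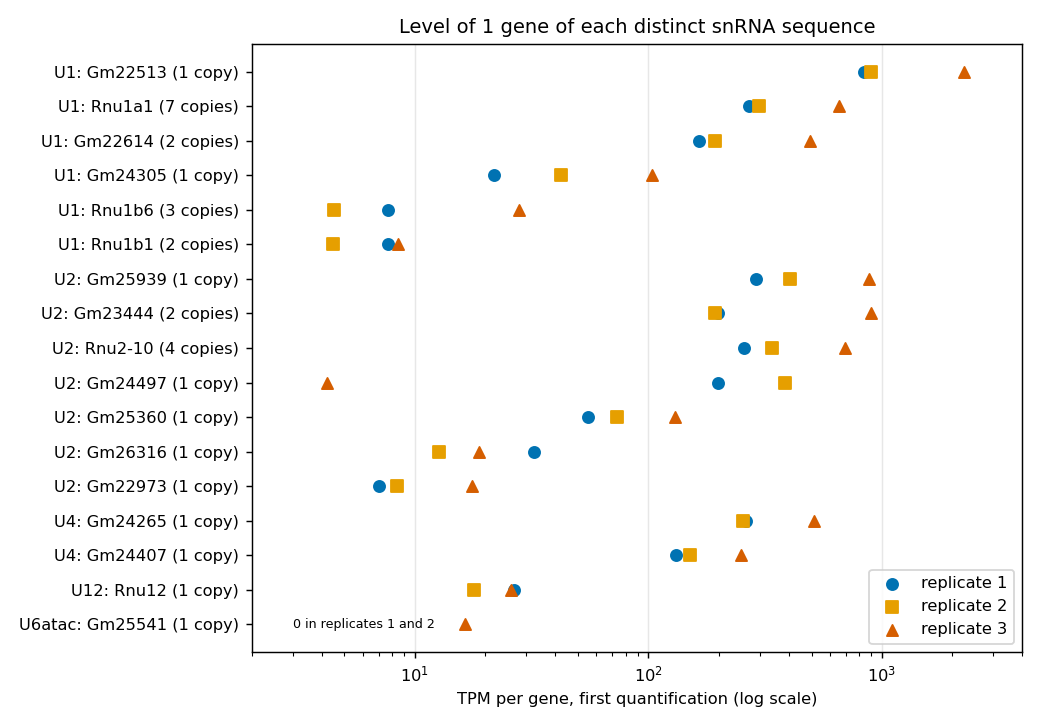
TPM of 1 gene of each of the 17 distinct sequences in the first quantification (x axis, log scale), grouped by class, 1 point per library. Replicate 3 lies to the right for 14 of the 17 sequences, and Gm24497 is the lowest point in that library at 4.23 TPM.

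At the threshold, the members with the lowest means were Rnu1b1 and Rnu1b2 at 6.85 TPM each and Gm25541 at 5.45 TPM. Just outside were Gm24041 at 0.923 TPM, Gm23744 at 0.630 TPM and Gm22940 at 0.480 TPM, each with counts in replicate 3 only. None of these 3 was within 90% identity of a class reference. The nearest was Gm24041, 73.2% identical to U1. No snRNA gene had a mean between 0.923 and 5.45 TPM.

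Most undetected snRNA genes could not have been detected in the first quantification at all. For 1093 of the 1383 genes the effective length was 0 in every library, and these included all 304 U6 genes, all 8 U5 genes and the U7 gene. Of the 290 others, 31 passed. Rnu5g, a U5 gene of the tri-snRNP, is listed at 0 in the first quantification and had 0, 2.64 and 4.34 TPM in the second. Rnu6, the U6 RNA, had 0.0128, 0 and 0 TPM in the second, but its sequence occurs in 43 genes that share their reads. The U6 genes together, of which 98 had counts, held 12.9, 15.5 and 28.3 TPM there, on 33.0, 68.0 and 203.7 estimated counts. Rnu11, the U11 partner of U12, had an effective length above 0 but no counts in either quantification. Finding no count still permits up to 3 counts, for Rnu11 equal to 33.6, 17.8 and 13.2 TPM in the first quantification. There Rnu12, at 26.6, 17.9 and 25.8 TPM, lay under that limit in replicate 1, next to it in replicate 2 and above it in replicate 3. By the second quantification Rnu12 had 37, 75.9 and 208.9 estimated counts, above those 3 counts in every library. In the second quantification 47 snRNA genes had a mean of at least 1 TPM, 29 of them among the 31. The highest of the others was Gm25047 on chromosome X, 79.4% identical to U6, at 53.2, 50.2 and 38.4 TPM.

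The detected genes lay in few places. The U1 genes stood in 3 groups: 7 genes within 41.8 kb on chromosome 12, 7 within 160 kb on chromosome 3, and Rnu1a1 with Gm22068 within 4.01 kb on chromosome 11. The chromosome 12 group held Gm22513, Gm24305 and 5 of the 7 Rnu1a1 copies. The chromosome 3 group held the U1b genes and no other detected U1 gene. Besides the chromosome 11 array and Gm23444, 4 U2 genes with 4 different sequences lay within 29.0 kb on chromosome 1. Of the 31 genes, 8 lay inside a longer gene, all in introns and none overlapping an exon. The hosts of 7 of them had at most 0.01 TPM, D230017M19Rik, a lincRNA around Gm23472, Gm24497 and Gm25939, and Tex14 around Rnu1a1 and Gm22068 included. The host with a measurable level was Rdm1 around Gm23849, at 3.03, 1.85 and 1.77 TPM. Rdm1 was highest in replicate 1, where the Rnu2-10 sequence was lowest. Gm23849 is 1 of 4 identical copies of that sequence, and its own level was not measured apart from theirs.

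Replicate 3 had the highest TPM for 28 of the 31 genes, and for 14 of the 17 distinct sequences. The exceptions were Gm24497, Gm26316 and Rnu12. Both counts include Gm25541, which had a TPM in replicate 3 alone, since its effective length was 0 in the others. The sum of the 31 genes was 2.60 times as high in replicate 3 as in replicate 1 in TPM of the first quantification, 2.08 times in the second, and 3.97 times in CPM (counts scaled to library size, with no length correction). In TPM of the first quantification, replicate 3 held 2.57 times the U1, 2.80 times the U2, 1.92 times the U4 and 0.970 times the U12 of replicate 1. The direction for U12 depended on the measure: it was 1.85 times as high in TPM of the second quantification and 1.42 times in CPM. Replicate 3 was also the most deeply sequenced, with 59390843 expected counts against 33821479 and 47843161.

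Whether this spread exceeds that of other genes was tested on the expected counts with edgeR's goodness-of-fit test, which asks whether a gene varies more between the 3 libraries than the dispersion trend over genes of its level. Of the 31 genes, 21 had at least 10 counts in every library and could be tested. They carried 10 distinct sequences, and 17 of them, with 6 sequences, passed at an adjusted p of 0.05 (Benjamini-Hochberg over 12330 genes). Over all genes tested 2.28% passed, 281 genes. The median SD of log2 CPM over the libraries was 0.97 for the 21 snRNA genes and 0.12 for all genes tested. The 0.97 is the value of the Rnu1a1 sequence, which enters once per copy, and the 2 sets were not matched for level. Summing identical copies into 1 row, a choice made after seeing the data, also gave 6 sequences past the threshold of 10 tested. The SD of these 10 rows ran from 0.33 for Gm26316 to 1.49 for the Gm23444 sequence.

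Among U2 genes, Gm23444 and Gm23472 had the largest SD, 1.48 each, with 4.82, 7.38 and 34.2 CPM (edgeR adjusted p = 1.6e-27). Gm24497, 1 base away, had its lowest value in replicate 3, where theirs was highest. Summed with it, in a fit added after seeing the data, the 3 genes had 14.5, 29.4 and 68.6 CPM, an SD of 1.12 and an edgeR adjusted p of 9.0e-20. Gm25939, which has no such neighbour, had 6.94, 15.4 and 33.7 CPM and an SD of 1.14 (edgeR adjusted p = 6.2e-15). Among U1 genes, Gm25890 and Gm22614 had an SD of 1.12 each at 1.84, 3.30 and 8.68 CPM (edgeR adjusted p = 0.00010). Gm22513 had 9.07, 14.8 and 38.1 CPM and an SD of 1.05 (edgeR adjusted p = 1.9e-14). In each of these replicate 1 was lowest and replicate 3 highest.

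The U4 genes did not pass: Gm24265 had an SD of 0.80 (edgeR adjusted p = 0.36) and Gm24407 of 0.74 (0.95), at mean counts of 94.0 and 48.3. The other tested genes that did not pass were Gm25360 (SD 0.94, edgeR adjusted p = 0.066) and Gm26316 (SD 0.33, adjusted p above 0.99). With the members of a class summed, U1 and U2 passed and U4 did not (edgeR adjusted p = 0.22). Without replicate 3, 6 members passed: the 4 Rnu2-10 copies, Gm25939 and Gm24497. The share of all genes that passed without replicate 3 is not given here. Gm24497 had 9.34 counts in replicate 3 and was not tested with all libraries. No single U1 gene passed without replicate 3, Gm22513 included (edgeR adjusted p = 0.13). The sums of U1 and U2 also passed without replicate 3.

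Long noncoding RNAs known to be kept in the nucleus were highest in the same library. Malat1 had 128, 335 and 913 TPM, Neat1 had 12.9, 24.1 and 66.9 TPM and Firre 0.710, 1.03 and 2.02 TPM. The 8 such RNAs listed summed to 164, 379 and 1009 TPM, with Meg3 at 0 in all libraries. Tug1 did not follow, at 19.2, 15.2 and 15.8 TPM. The same edgeR test called Xist (SD 1.25, edgeR adjusted p = 3.3e-29), Neat1 (1.21, 3.8e-22), Malat1 (1.55, 5.4e-16), Kcnq1ot1 (1.29, 1.6e-06) and Firre (0.96, 0.0014). Airn (0.72, 0.85) and Tug1 (0.067, above 0.99) did not pass. The part of these noncoding RNAs in the snRNA difference was not tested. In bulk samples fewer cells of a type and less RNA per cell cannot be told apart. All 8 macrophage markers were present, summing to 7826, 6089 and 5777 TPM. Lyz2 held most of that sum, with 5507, 3860 and 3673 TPM. Cd14 was highest in replicate 2, at 545, 697 and 513 TPM, and the others were highest in replicate 1. The 6 neutrophil markers summed to 41.5, 24.2 and 41.7 TPM, and the 6 lymphocyte markers to 0.01, 0.02 and 0.16 TPM.

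**Figure D4:**
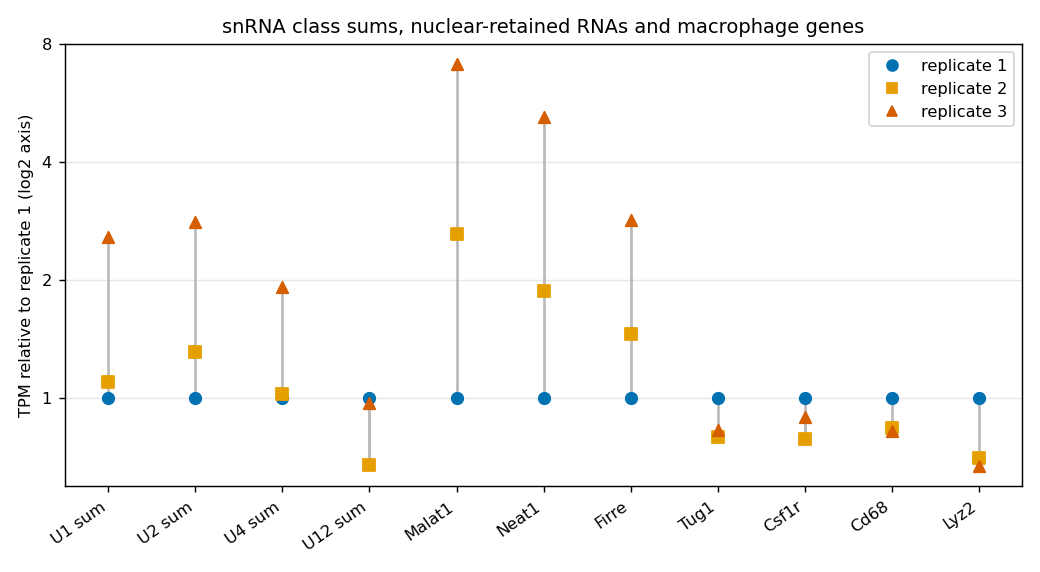
TPM relative to replicate 1 (y axis, log2 axis) for summed snRNA classes, nuclear-retained RNAs and macrophage genes, 1 point per library. The U1, U2 and U4 sums, Malat1, Neat1 and Firre are highest in replicate 3, while Tug1 and the macrophage genes Csf1r, Cd68 and Lyz2 lie at or below 1. Of the listed macrophage genes that are not plotted, Cd14 was above its replicate 1 value in replicate 2.

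The proteins that make and use snRNAs were examined in 10 lists of 109 protein-coding genes. In each library the level of a gene, log2(TPM + 0.1), was compared with a reference: the median over the 8747 protein-coding genes averaging 1 TPM or more, which stood at 7.38, 6.08 and 6.21 TPM. A gene was called above or below when limma's one-sample moderated test gave an adjusted p under 0.05 and the mean difference was at least 1 on the log2 scale. A small p here says that the difference repeated in the 3 libraries. Of the 108 listed genes tested, 16 were above and 35 below, 14.8% and 32.4%. Over all 13327 genes tested 20.5% were above and 50.6% below, and their median difference was -1.06, against -0.43 for the listed genes.

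In the first quantification the structural proteins of the major snRNPs were mostly at or above the reference. Of 8 U1 snRNP proteins 4 were above and 1 below, with a median log2 difference of 0.98. Snrnp70, the U1-70K protein that binds U1 directly, had 23.4, 21.6 and 22.3 TPM (log2 difference 1.76 ± 0.10, SD). Luc7l was below at 2.06, 2.03 and 2.57 TPM. Of 12 U2 snRNP proteins 3 were above and 1 below, with a median of 0.44. Sf3b2 at 32.5, 28.6 and 28.4 TPM and Sf3b1, the branch site factor, at 29.1, 24.1 and 27.6 TPM led them, and Sf3b5 was below at 2.78, 2.31 and 2.20 TPM. Of the 7 Sm proteins, which form the ring on U1, U2, U4 and U5, 3 were above and none below, led by Snrpb at 31.1, 22.1 and 21.9 TPM and Snrpe at 29.6, 20.9 and 20.5 TPM.

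The tri-snRNP and U6 lists were mixed. None of the 7 Lsm2 to Lsm8 proteins, the ring of U6, was above. Lsm4 at 14.0, 12.3 and 11.9 TPM and Lsm3 at 10.4, 8.67 and 9.84 TPM were highest, and Lsm5 was below at 4.52, 2.14 and 2.55 TPM. Of 16 tri-snRNP proteins 2 were above and 4 below. Prpf8, the large U5 protein at the catalytic centre, had 18.4, 15.3 and 16.1 TPM and Snrnp27 had 16.4, 13.5 and 13.9 TPM. Those below were Txnl4a with a mean of 1.14 TPM, Prpf4 with 1.18, Prpf3 with 2.81 and Snrnp40 with 3.23. Of 7 genes for U6 maturation and recycling 1 was above, Ssb (the La protein), at 22.8, 20.1 and 19.8 TPM. Usb1, which trims the U6 end, was next with a mean of 11.5 TPM and was not called. The genes below were Tut1 with a mean of 1.78 TPM, Mettl16 with 1.83, Mepce with 2.86 and Sart3 with 3.12.

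Among 9 proteins of the minor spliceosome, 1 was above and 3 below. Zcrb1 was above at 20.9, 19.6 and 19.4 TPM. Snrnp35, a U11 protein, was next with a mean of 8.12 TPM and was not called. Pdcd7 and Snrnp48 were below with means of 1.43 TPM each, as was Rnpc3, which binds U12, with 3.09. Of 4 genes for U7 and histone mRNA ends, Lsm10 had a mean of 11.2 TPM and Slbp of 4.94, neither called. Lsm11, the other U7-specific ring protein, was below with 0.680 TPM, and Zfp473 was too low to test at 0.04 TPM.

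The genes for making and assembling snRNAs were compared with the same reference, for which 23.4% of all tested protein-coding genes were above and 43.7% below. Of 19 genes for snRNA transcription and the Integrator, the complex that cleaves the snRNA 3′ end, none was above and 10 were below, 52.6%, close to the 50.6% of all genes. Snapc5 and Ints6 had the highest means, 9.74 and 7.45 TPM, and were not called. Below were Snapc4 with a mean of 0.837 TPM, Snapc3 with 1.03, Snapc1 with 1.36 and Snapc2 with 2.76, subunits of the factor that recruits polymerase to snRNA promoters. The Integrator genes below were Ints10 with a mean of 1.59 TPM, Ints5 with 1.64, Ints2 with 1.96, Ints7 with 2.34, Ints11 with 2.74 and Ints9 with 2.99. In the second quantification Ints1 (log2 difference -1.26), Ints3 (-1.21), Ints4 (-1.52), Ints8 (-1.29), Ints13 (-1.04) and Ints14 (-1.13) were below as well. These genes were named after their values were seen. The share of all genes below in that quantification is not given here.

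Of 20 genes for export, cytosolic Sm loading and import, 2 were above and 10 below, 50%, again near the share of all genes. Kpnb1, the import receptor beta, had 16.5, 14.3 and 15.8 TPM and Strap 15.2, 12.7 and 13.6 TPM. Of the SMN complex, Gemin8 with a mean of 0.213 TPM, Gemin2 with 0.437, Gemin6 with 0.537, Gemin4 with 0.543, Gemin5 with 0.987 and Ddx20 with 1.11 were below. Smn1 itself had 4.41, 3.41 and 3.87 TPM and was not called (log2 difference -0.74), but it was below in the second quantification (-1.06, limma adjusted p = 0.0015). Phax (-1.03) and Ncbp1 (-1.24), not called in the first quantification, were also below in the second. Smn1, Phax and Ncbp1 were named after their values were seen. Coil, the scaffold of Cajal bodies, was below with 0.557 TPM, and so were Snupn, which imports capped snRNPs, with 0.903, Wdr77 with 2.03 and Prmt5, which methylates Sm proteins, with 2.47. With the reference raised to protein-coding genes of at least 5 TPM, 1 of the 109 genes stayed above and 64 were below. A higher reference moves the calls of every gene. The share of all genes under it is not given here, so these counts are no result about the listed genes. In the second quantification Kpnb1 (log2 difference 0.72), Strap (0.49), Prpf8 (0.87) and Snrnp27 (0.63) were no longer above. Nor were Snrpa (0.28) and Snrpc (0.71) of the U1 list, Sf3b6 (0.60) of the U2 list and Snrpd1 (0.56) of the Sm list. The calls above are therefore relative to the lower reference and to the first quantification.

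**Figure D5:**
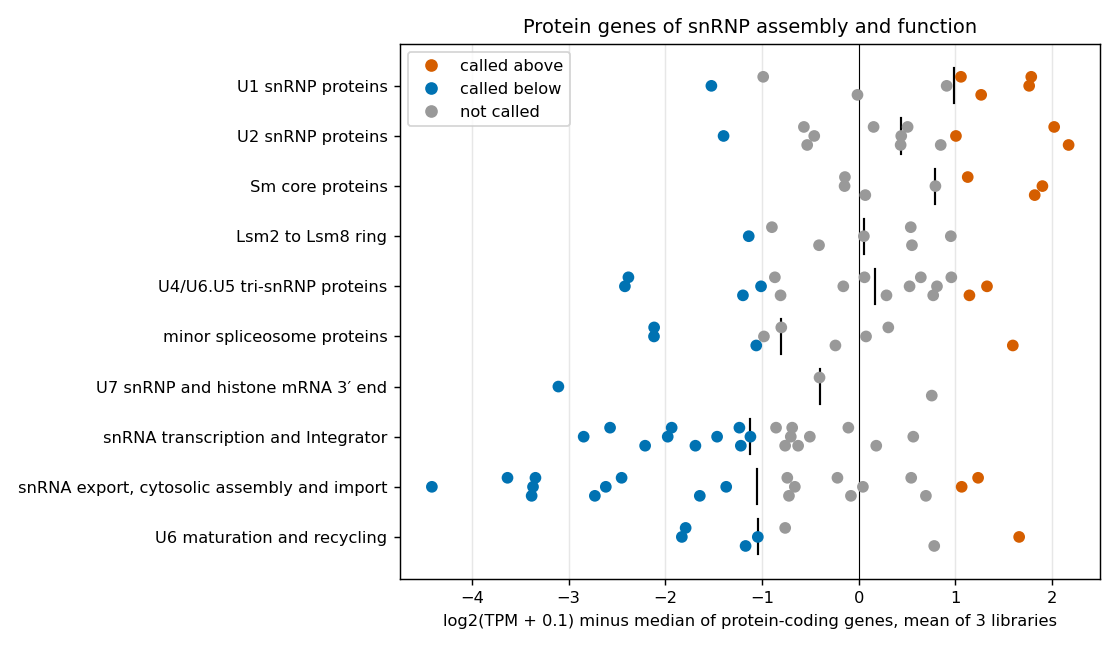
Level of each tested protein-coding gene relative to the library median of protein-coding genes (x axis, mean log2 difference over the 3 libraries) in the 10 lists (y axis), with a black bar at the median of the list. In the first quantification, shown here, the U1, U2 and Sm lists lie right of 0 by median. The lists for transcription, assembly and U6 maturation have medians near -1, close to the -1.06 of all genes tested.

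Of the 109 protein genes 1 varied between libraries past the edgeR threshold, against 2.28% of all genes tested. This was Prpf39, a U1 snRNP protein, at 2.81, 2.83 and 4.29 TPM (edgeR adjusted p = 0.016). It was highest in replicate 3, as most of the snRNA genes were. The other protein genes of the U1 and U2 particles did not pass. At the share of all genes few calls are expected in lists of this size. The lack of calls alone therefore says little about whether the protein genes followed the spread of U1 and U2 RNA. The SD of log2 CPM was 1.02 for the U1 sum and 1.07 for the U2 sum. Among the listed U1 and U2 proteins it was at most 0.48, the value of Prpf39, so none of them spread as widely. The difference between the sets was not tested.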

How the data were processed

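The labels describe 3 libraries of ribosomal RNA-depleted total RNA. Per the file headers, the authors deposited expected counts, TPM, FPKM, effective lengths and credibility bounds per gene (first quantification), and estimated counts and TPM per transcript made straight from reads (second quantification, summed per gene here). Per the deposited text files, the build was mm10 with GENCODE M21. Tools, versions and use of strand are not stated in any header or label read here; genes with an antisense partner are uncertain. The deposited FPKM values served in 1 alternative.

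Members were found by biotype and mean TPM, grouped by identical sequence, and classed at 90% identity to a reference gene (edlib 1.3.9). Members and lists were chosen with earlier results of these data known. Expected counts were rounded, genes with at least 10 in every library kept, and variation tested with edgeR 4.0.16 (TMM, trended dispersion). Levels used log2(TPM + 0.1) and limma 3.58.1 for genes averaging at least 0.1 TPM. Adjustment was by Benjamini-Hochberg over all genes. Both steps were tested on simulated data. Named genes were the Rnu members, the 10 other members highest in TPM and in counts, 3 genes on each side of the threshold, the 5 most variable called members, the 2 highest genes of each list and all listed genes called below. One gene that this rule names is not reported here. A count of 0 allows up to 3 counts, for counting error only. Alternatives were DESeq2 1.42.0 size factors, other filters, pseudocounts and references, the second quantification and leaving out each library.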

Additional observations from a re-analysis of the deposited data

How the results depend on the processing

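Without replicate 3 the number of members that varied past the threshold fell from 17 to 6 and of distinct sequences from 6 to 3; leaving out any 1 library gave 6 to 17 members and 3 to 6 sequences. DESeq2 size factors gave 17 members, and a minimum of 1 count gave 18 of 31. In the second quantification 47 snRNA genes passed the 1 TPM rule in place of 31. Its mean share of TPM was 0.105% for the members (0.881% in the first), 0.0436% for U1, 0.0562% for U2, 0.00380% for U4 and 0.00130% for U12. Its share of counts was 0.000162% for U12 (2.0e-05% in the first) and 4.9e-05% for U6atac (3.5e-06% in the first), while the share of all members was 0.0184% against 0.0197%. Listed protein genes above the reference numbered 8 in the second quantification and 1 with the reference at 5 TPM, against 16, and those below 51 and 64, against 35. Of the 55 named protein-gene results, 36 kept their call and direction with the reference at 5 TPM. With a pseudocount of 1 TPM 47 did, in the second quantification 47 and in FPKM 46. Lsm5, Prpf3, Snrnp40, Rnpc3, Ints9, Mepce and Sart3 were below neither with the pseudocount of 1 TPM nor in FPKM. Strap was not above with that pseudocount. Of the genes named and not called, those that changed sign with the 5 TPM reference were Ints6 (-0.85), Lsm10 (-0.27), Lsm3 (-0.48), Lsm4 (-0.075), Snapc5 (-0.46), Snrnp35 (-0.72) and Usb1 (-0.25). In the second quantification, those named and not called that changed sign were Ints6 (-0.17), Lsm3 (-0.024), Snapc5 (-0.0014) and Snrnp35 (-0.12). The cause was not tested. No paired analysis was possible because the samples form 1 group. Rnu12, Gm25541 and the named U1b genes rest on few counts in the first quantification.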
